A study of Mus musculus with 6 samples.

Results

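The immunoproteasome and the machinery that loads peptides onto MHC class I molecules were represented by 10 genes: Psmb8, Psmb9, Psmb10, Psme1, Psme2, Tap1, Tap2, Tapbp, B2m and Nlrc5. They were taken by symbol from a table of 57132 gene rows, and all 10 were present and passed the filter on low counts, among 19927 genes tested. The group was chosen from a comparison of the same 6 libraries whose fold changes between genotypes were already known. The genotype values of these 10 genes, and any call on them below, are therefore a description and not a test. The libraries came from isolated glomeruli, the filtering units of the kidney, of mice that all carried 2 floxed copies of Setdb2 (Setdb2fl/fl) and were all labelled DKD, for diabetic kidney disease. In 3 of them the Cre recombinase was absent (Cre-/Setdb2fl/fl, here Cre_negative) and in 3 it was present (Cre+/Setdb2fl/fl, here Cre_positive). The study asked what the histone methyltransferase SETDB2 does in podocytes, the epithelial cells on the glomerular capillaries. No source used here gives the promoter behind Cre, the way diabetes was induced, or the age, strain and sex of the animals, and there is no group without diabetes or without floxed alleles.

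MHC class I molecules carry short peptides to the cell surface, where CD8 T cells inspect them. The peptides are cut in the cytosol by the proteasome. Interferon-gamma replaces its catalytic subunits with the immunosubunits encoded by Psmb8, Psmb9 and Psmb10 and adds the PA28 activator encoded by Psme1 and Psme2. Tap1 and Tap2 form the pump that moves peptides into the endoplasmic reticulum, tapasin (Tapbp) tethers that pump to empty class I molecules and edits their cargo, and B2m encodes their light chain. Nlrc5 encodes the transactivator of class I genes. In kidney the pathway is known from inflamed tissue and from rejection of transplants, and tubular, endothelial and immune cells can all express it.

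The libraries held 53571438 to 58807042 counts. Setdb2 itself had 591, 492 and 370 counts across Cre_negative replicates 1 to 3, against 427, 444 and 391 across Cre_positive replicates 1 to 3. Its levels were 8.37 ± 1.62 and 7.70 ± 0.371 CPM (counts relative to the scaled library total; SD, n = 3), so the gene-level count did not separate the genotypes. Xist, the RNA of the inactive X chromosome, had 24 counts in Cre_positive replicate 2 and 36474 to 47632 in the other 5 libraries. The Cre_positive group was thus mixed for Xist, while all Cre_negative libraries held it at a high level. Whether the libraries differed in sex was not tested. Values without Cre_positive replicate 2 are therefore given below. Markers of glomerular cells were present, and those of the tubule were at higher levels. The summed CPM of 8 podocyte markers was 500.0 to 806 over the 6 libraries and that of 8 proximal tubule markers was 6114 to 10261. The labels do not say that replicates came from separate mice, so the spread between them may be technical in part. By its Xist count, however, Cre_positive replicate 2 was no technical repeat of replicate 1 or 3.

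The start region of Tap1 is shown because Tap1 and Psmb9 begin back to back. Those of Psmb8, B2m and Psme1 were picked because they hold a match to a motif named below. Of the 10 genes, 8 had a promoter window in the RefSeq table for GRCm38.p6, a build other than the GRCm39 named in the submitters' processing notes, and no window for Tap2 or Nlrc5 was used. Each window runs from 250 bases before the start site to 50 after it. Capitals mark matches, on either strand, to GAAANNGAA (interferon-stimulated response element), TTCNNNGAA (gamma-activated site), GGANTTTCC (NF-kB site) or CCAAT (NF-Y box). None of the matches within these windows overlap each other. The windows lie on the plus strand at chr17:34187306-34187605 for Tap1, chr17:34197945-34198244 for Psmb8, chr2:122147437-122147736 for B2m and chr14:55578244-55578543 for Psme1.
Tap1: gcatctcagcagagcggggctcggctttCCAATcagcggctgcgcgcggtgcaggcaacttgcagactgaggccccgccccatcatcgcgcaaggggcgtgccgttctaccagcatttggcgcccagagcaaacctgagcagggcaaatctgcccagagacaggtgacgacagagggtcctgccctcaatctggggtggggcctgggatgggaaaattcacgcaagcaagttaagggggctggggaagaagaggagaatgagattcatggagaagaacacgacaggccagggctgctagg
Psmb8: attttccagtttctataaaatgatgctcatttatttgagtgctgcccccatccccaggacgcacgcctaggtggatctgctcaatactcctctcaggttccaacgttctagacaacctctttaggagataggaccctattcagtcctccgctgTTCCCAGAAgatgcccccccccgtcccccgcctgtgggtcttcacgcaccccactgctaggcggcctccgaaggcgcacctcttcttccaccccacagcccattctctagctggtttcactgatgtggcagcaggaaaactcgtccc
B2m: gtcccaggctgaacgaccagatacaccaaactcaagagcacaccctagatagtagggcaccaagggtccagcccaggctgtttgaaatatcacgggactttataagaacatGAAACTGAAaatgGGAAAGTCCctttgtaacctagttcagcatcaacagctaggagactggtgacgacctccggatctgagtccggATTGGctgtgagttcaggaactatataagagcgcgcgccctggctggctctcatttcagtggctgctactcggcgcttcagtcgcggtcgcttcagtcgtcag
Psme1: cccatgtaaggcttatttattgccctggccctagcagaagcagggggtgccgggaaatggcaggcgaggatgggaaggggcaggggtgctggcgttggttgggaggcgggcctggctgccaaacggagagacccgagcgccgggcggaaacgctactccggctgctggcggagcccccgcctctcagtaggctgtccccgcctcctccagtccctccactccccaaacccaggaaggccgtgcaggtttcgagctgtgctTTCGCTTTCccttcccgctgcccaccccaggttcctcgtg

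The window of Psmb9 lies on the minus strand at chr17:34187281-34187580 and shares 275 of its 300 bases with that of Tap1. The start sites of the pair are 226 bases apart and point away from each other. The CCAAT of the Tap1 window and the ATTGG that lies just before the Psmb9 start are the same 5 bases, at chr17:34187334-34187338. In B2m the response element and the NF-kB match stand near each other, at positions -139 to -131 and -126 to -118 from the start site, with the NF-Y box at -53 to -49. Psmb8 held a gamma-activated site match at -97 to -89. Over all 32851 windows in the table, 8.56% held the response element, 8.30% the gamma-activated site, 1.25% the NF-kB site and 37.4% the NF-Y box. Of the 9 windows of these genes, where Psme2 has 2 that overlap, the counts were 2, 1, 1 and 4. The NF-Y count includes the box shared by Tap1 and Psmb9 under both genes. Among the windows not printed, those of Psmb10 and Psme2 held no match and that of Tapbp held NF-Y boxes only. A match is a run of letters and does not show that a factor binds there.

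All 10 genes were lower in Cre_positive than in Cre_negative glomeruli, and for none of them did the 3 libraries of one genotype overlap those of the other. Their Cre_positive levels were between 36.8% (Tap1) and 74.8% (Psme1) of the Cre_negative ones. The median log2 fold change of Cre_positive over Cre_negative was -0.76, against -0.00089 over all genes tested. All 10 passed an adjusted p of 0.05 in the fit over all genes, where 3.82% of genes were called lower. The 3 Cre_positive libraries lay below all Cre_negative ones for 14.5% of all genes tested. Because the genes were grouped on this contrast, neither count is evidence about them. Without Cre_positive replicate 2, 9 of the 10 were called, where 324 of 20562 genes tested were called lower, which is likewise no evidence. Without that library the log2 fold changes were -1.29 for Tap1, -1.08 for Nlrc5, -0.99 for Psmb8, -0.92 for Psmb9 and -0.77 for Tap2. They were -0.71 for B2m, -0.61 for Psmb10, -0.58 for Tapbp, -0.48 for Psme1 and -0.45 for Psme2. In whole glomeruli, fewer cells of a type and less RNA per cell cannot be told apart.

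**Figure D1:**
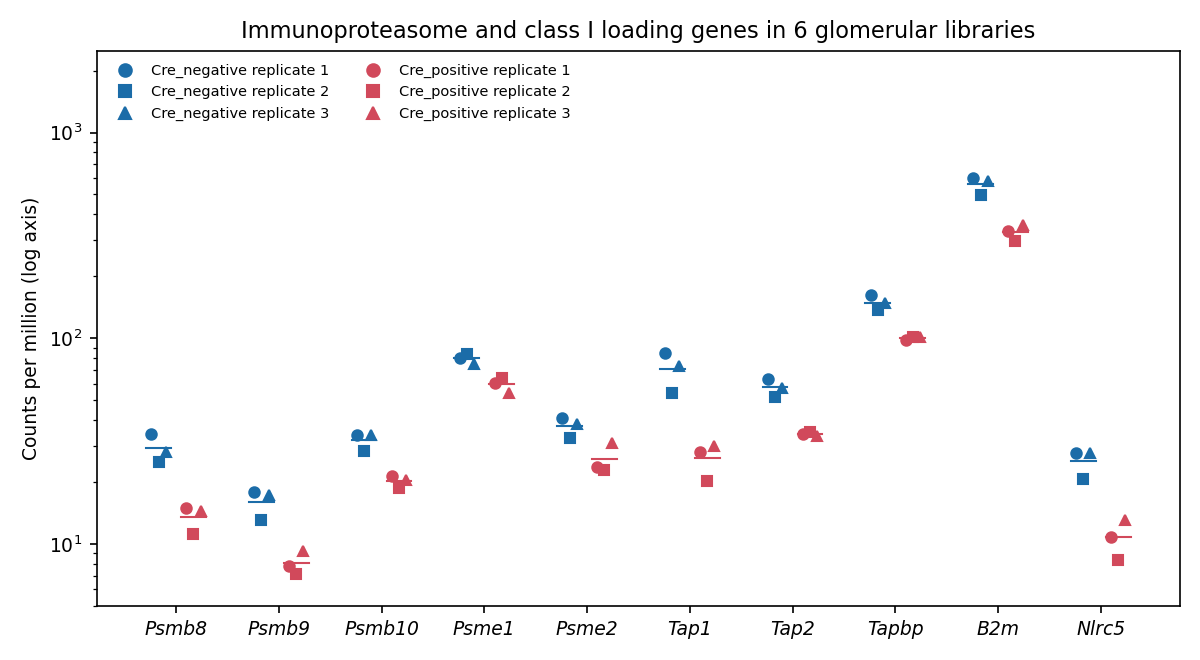
CPM of the 10 genes (log axis) in each library, with a point per library, its replicate number as the shape and the group mean as a short line. For every gene the Cre_positive points sit below the Cre_negative ones, most widely for Tap1 (54.0 to 85.0 against 20.1 to 30.0 CPM) and most narrowly for Psme2 (32.9 to 40.7 against 22.8 to 30.9 CPM).

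Among the catalytic immunosubunits, Psmb8 and Psmb9 were at about the same fraction of the Cre_negative level and Psmb10 at a larger one. Psmb8, whose product LMP7 provides the chymotrypsin-like site, had 34.3, 25.1 and 27.9 CPM across Cre_negative replicates 1 to 3, against 14.9, 11.1 and 14.5 CPM across Cre_positive replicates 1 to 3. Its lowest Cre_negative value was 1.68 times its highest Cre_positive value, and the log2 fold change was -1.11 (SE 0.15, 95% confidence interval -1.46 to -0.76). Psmb9, whose product is LMP2, had 17.8, 13.0 and 17.3 CPM against 7.78, 7.11 and 9.22 CPM. Replicate 2 was the lowest library within each genotype for both genes. The log2 fold change of Psmb9 was -0.997 (SE 0.17, interval -1.37 to -0.62). Psmb10, which encodes MECL-1 and the trypsin-like site, had 33.7, 28.3 and 33.8 CPM against 21.4, 18.6 and 20.5 CPM. Its groups were tight, with coefficients of variation of 9.76% and 7.07%, and its log2 fold change was -0.66 (SE 0.10, interval -0.90 to -0.43).

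The PA28 genes had the smallest differences of the 10. PA28 opens the gate of the proteasome core and is made of alpha (Psme1) and beta (Psme2) subunits. Psme1 had 80.5, 83.7 and 74.8 CPM across Cre_negative replicates 1 to 3, against 60.6, 64.1 and 53.9 CPM across Cre_positive replicates 1 to 3, a log2 fold change of -0.42 (SE 0.085, interval -0.61 to -0.23). Psme1 was the only one of the 10 whose replicate 2 was the highest library of both genotypes. Psme2 had 40.7, 32.9 and 38.1 CPM against 23.7, 22.8 and 30.9 CPM, and its log2 fold change was -0.53 (SE 0.13, interval -0.83 to -0.23). Cre_positive replicate 3 came within 1.06-fold of the lowest Cre_negative library for this gene. The call of Psme1 ended without Cre_negative replicate 2 and without Cre_positive replicate 1 or 3. That of Psme2 ended without Cre_negative replicate 1 or 3, without Cre_positive replicate 1 or 2, with limma voom and with robust=FALSE. Psme2b, a near copy of Psme2, had 12.3 to 16.2 CPM in Cre_negative and 9.86 to 12.6 CPM in Cre_positive libraries, a log2 fold change of -0.28 (SE 0.15). No source used here says how reads matching both copies were counted, so the share of Psme2 is uncertain.

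Of the peptide pump, Tap1 had the largest difference of the 10 genes and Tap2 about the middle one. Tap1 had 85.0, 54.0 and 73.1 CPM across Cre_negative replicates 1 to 3, against 28.0, 20.1 and 30.0 CPM across Cre_positive replicates 1 to 3. Its spread within Cre_negative, at a coefficient of variation of 22.1%, was also the widest, yet its lowest Cre_negative library was 1.80 times the highest Cre_positive one. The log2 fold change of Tap1 was -1.44 (SE 0.21, interval -1.93 to -0.96). Tap2 had 63.2, 51.9 and 57.5 CPM against 34.2, 35.0 and 33.5 CPM, where the Cre_positive libraries differed by a coefficient of variation of 2.25% only. Its log2 fold change was -0.75 (SE 0.087, interval -0.95 to -0.55). Tap1 per kilobase was 157%, 121% and 148% of Tap2 across Cre_negative replicates 1 to 3, against 95.4%, 67.0% and 105% of it across Cre_positive replicates 1 to 3. Per kilobase, Tap1 was thus above Tap2 in every Cre_negative library. In Cre_positive libraries Tap1 was below Tap2 in replicates 1 and 2 and slightly above it in replicate 3. By counts alone, with no correction for length, Tap1 was 134%, 104% and 127% of Tap2 in Cre_negative libraries. In Cre_positive libraries it was 81.9%, 57.4% and 89.7%, so which of the 2 is higher depends in part on the lengths used.

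Tapasin and the light chain were the most abundant of the loading genes in CPM and were lower in each Cre_positive library. Tapbp had 162, 137 and 148 CPM across Cre_negative replicates 1 to 3, against 98.4, 101 and 101 CPM across Cre_positive replicates 1 to 3, a log2 fold change of -0.57 (SE 0.076, interval -0.74 to -0.40). B2m had 604, 495 and 580 CPM against 331, 296 and 355 CPM. Its log2 fold change was -0.77 (SE 0.10, interval -1.01 to -0.54), so that 58.5% of the Cre_negative level was left. B2m was also the gene whose pattern over the 6 libraries lay closest to the median of the 10.

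Nlrc5, the transactivator, was low in level and among the largest differences. It had 27.6, 20.6 and 27.6 CPM across Cre_negative replicates 1 to 3, against 10.8, 8.36 and 13.1 CPM across Cre_positive replicates 1 to 3. The groups were 1.57-fold apart at their nearest, and the log2 fold change was -1.24 (SE 0.18, interval -1.65 to -0.82). Ciita, its relative that drives MHC class II genes, had 11.7, 4.31 and 7.85 CPM against 4.63, 4.39 and 5.78 CPM. The groups overlapped for Ciita, which did not pass in the edgeR test (log2 fold change -0.69, SE 0.33, adjusted p = 0.253).

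Within a genotype the genes kept a common order of libraries. In Cre_negative, replicate 1 was the highest for 8 of the 10 and replicate 2 the lowest for 9. In Cre_positive, replicate 3 was the highest for 6 and replicate 2, the library almost without Xist, the lowest for 7. The median of the 10 genes, as log2 CPM minus each gene's mean over the 6 libraries, was 0.51, 0.22 and 0.43 across Cre_negative replicates 1 to 3. The corresponding values were -0.38, -0.48 and -0.31 across Cre_positive replicates 1 to 3. Coefficients of variation ran from 5.68% (Psme1) to 22.1% (Tap1) in Cre_negative and from 1.41% (Tapbp) to 22.1% (Nlrc5) in Cre_positive libraries.

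The order of levels was set per kilobase of the principal transcript in GENCODE M21. In Cre_negative libraries B2m stood far above the rest at 651 ± 67.0 CPM per kilobase (SD, n = 3). Psme1 followed at 71.6 ± 4.07, Tapbp at 51.4 ± 4.23 and Psme2 at 38.7 ± 4.15 CPM per kilobase. Psmb10 (24.4 ± 2.38) and Tap1 (23.9 ± 5.30) did not differ beyond their spread, nor did Psmb8 (17.9 ± 2.91) and Tap2 (16.7 ± 1.64). Psmb9 stood at 11.9 ± 1.97 and Nlrc5 at 3.34 ± 0.532 CPM per kilobase. In Cre_positive libraries the order was the same except that Tap2 (9.94 ± 0.224) came before Tap1 (8.82 ± 1.77) and Psmb8 (8.30 ± 1.28), and none of these 3 differed from its neighbour beyond their spread.

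The immunosubunits were lower relative to the standard subunits that they replace. Such a ratio is taken within a library and does not depend on scaling between libraries. Per kilobase, Psmb8 was 17.6%, 10.9% and 15.6% of Psmb5 across Cre_negative replicates 1 to 3, against 10.1%, 6.46% and 9.49% of it across Cre_positive replicates 1 to 3. The groups did not overlap, though Cre_negative replicate 2 came close to Cre_positive replicate 1. Psmb9 was 12.6%, 8.34% and 12.1% of Psmb6 against 5.83%, 4.89% and 7.13%. Psmb10 was 34.9%, 31.2% and 40.1% of Psmb7 against 26.2%, 21.8% and 26.1%. The mean log2 ratio differed between genotypes by -0.75 for Psmb8 to Psmb5, -0.88 for Psmb9 to Psmb6 and -0.52 for Psmb10 to Psmb7, with pooled SDs within genotypes of 0.36, 0.30 and 0.17. The standard subunits themselves did not pass: the log2 fold change was -0.36 (SE 0.10) for Psmb5, -0.11 (SE 0.075) for Psmb6 and -0.14 (SE 0.075) for Psmb7. All Cre_positive libraries still lay below all Cre_negative ones for Psmb5 (interval -0.59 to -0.12, adjusted p = 0.0745 in edgeR). The groups overlapped for Psmb6 and Psmb7.

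**Figure D2:**
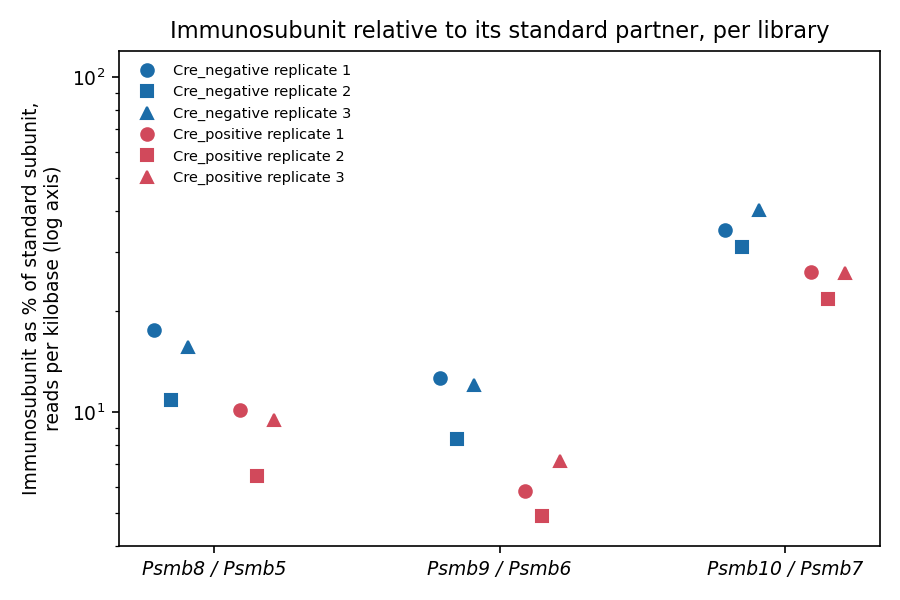
Reads per kilobase of each immunosubunit as a percentage of its standard partner (log axis), with a point per library. Cre_positive libraries lie below all Cre_negative ones for the 3 pairs, at 4.89% to 7.13% against 8.34% to 12.6% for Psmb9 over Psmb6.

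None of the other proteasome genes passed, although most had log2 fold changes below 0. The lists of other pathway genes in this and the next paragraphs were, like the 10 genes, drawn up with earlier results of these data known. Of 46 genes for the standard core, the regulatory cap, assembly and other caps, 44 were tested and none passed at 0.05 after adjustment by edgeR, where 3.82% of all genes were called lower and 3.73% higher. Of the 44, 15 had an unadjusted p under 0.05, a mark that 23.5% of all genes tested passed in either direction. The log2 fold change was below 0 for 39, against 9984 of all 19927 genes tested. For 22 all Cre_positive libraries lay below all Cre_negative ones, against 14.5% of all genes. All 14 genes of the standard core had a log2 fold change below 0, from -0.36 to -0.09, with a median of -0.18. Psmb1, a structural core subunit, had the smallest p among them, at 116 ± 6.14 CPM without Cre and 97.2 ± 2.67 CPM with it (SD, n = 3; log2 fold change -0.26, adjusted p = 0.0544 in edgeR). The 22 genes of the regulatory cap had a median of -0.15, and Psmc4, an ATPase of its base, came nearest to passing at -0.24 (adjusted p = 0.0617 in edgeR). The 8 tested genes of assembly and other caps had a median of -0.062. Psme4, the PA200 activator, stood at -0.28 (adjusted p = 0.0659 in edgeR). Psmb11 and Psma8, the thymus and testis subunits, were not tested, with at most 4 and 29 counts in a library.

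Some of the class I heavy chains, which pair with the B2m product, fell. Of 17 listed genes 16 were tested, 7 fell (3.82% of all genes did), none rose and 9 did not pass in edgeR's quasi-likelihood test, with a median log2 fold change of -0.51. H2-K1, a classical heavy chain, had 634, 556 and 636 CPM across Cre_negative replicates 1 to 3, against 265, 288 and 313 CPM across Cre_positive replicates 1 to 3. It fell by 1.08 on the log2 scale (SE 0.094, adjusted p = 0.000621 in edgeR). H2-D1, the other classical chain, had 569, 499 and 553 CPM against 253, 271 and 294 CPM, and fell by 0.99 (SE 0.090, adjusted p = 0.000702 in edgeR). The genotypes did not overlap for either gene. The nonclassical H2-Q4 fell by 0.64 on the log2 scale (SE 0.10, adjusted p = 0.00929 in edgeR) and H2-T22 by 0.37 (SE 0.068, adjusted p = 0.0146 in edgeR). Leaving out any Cre_positive library ended the call of H2-T22 (adjusted p up to 0.0720 in edgeR). Per kilobase, H2-K1 was 55.7%, 59.7% and 58.2% of B2m across Cre_negative replicates 1 to 3, against 42.5%, 51.6% and 46.8% of it across Cre_positive replicates 1 to 3. These genes share long stretches of sequence, so reads may have been counted at the wrong copy. H2-Q1, named after its values were seen, had 405, 309 and 350 counts against 0, 171 and 0 counts and did not pass (adjusted p = 0.435 in edgeR).

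Of the partners that hold and trim peptides in the endoplasmic reticulum and the cytosol, 1 gene passed. None of 9 genes of the reticulum passed in edgeR's quasi-likelihood test, and 1 had an unadjusted p under 0.05, against 23.5% of all genes. The median was -0.10, with 8 of the 9 below 0, against 9984 of all 19927 genes tested. The gene with the smallest p was Tapbpl, which encodes TAPBPR, a peptide editor related to tapasin, at 20.6 ± 2.90 against 16.6 ± 1.55 CPM (SD, n = 3; log2 fold change -0.31, adjusted p = 0.186 in edgeR). Of 7 cytosolic peptidase genes, Cndp2, a dipeptidase gene, fell by 0.76 on the log2 scale (SE 0.17, adjusted p = 0.0397 in edgeR). The other 6 did not pass, where 3.82% of all genes tested fell. The call of Cndp2 ended without any 1 of the Cre_negative libraries, without Cre_positive replicate 2 or 3, and with no filter on low counts (adjusted p up to 0.118 in edgeR).

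**Figure D3:**
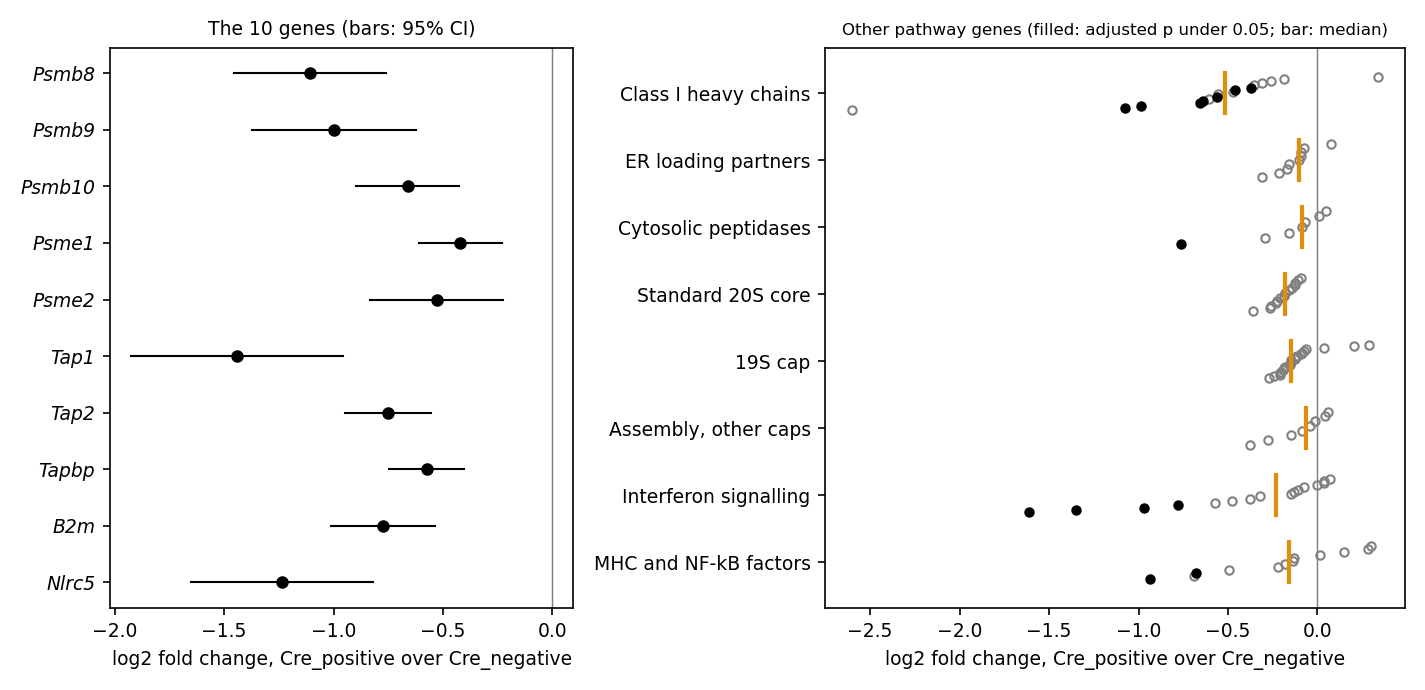
Log2 fold change of Cre_positive over Cre_negative for the 10 genes with 95% confidence intervals (left), and for the tested genes of 8 lists of other pathway genes (right), where filled points passed an adjusted p of 0.05 and the bar is the list's median. The 10 genes run from -1.44 to -0.42, while the standard core runs from -0.36 to -0.09 with no filled point.

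Of the genes of interferon signalling, some transcription factors fell and the receptors and kinases did not pass. Of 18 listed genes 16 were tested and 4 fell, where 3.82% of all genes tested did. None rose and 12 did not pass in edgeR's quasi-likelihood test, with a median of -0.23. Irf1, which binds response elements, had 64.7, 38.9 and 49.7 CPM across Cre_negative replicates 1 to 3, against 24.5, 27.5 and 26.3 CPM across Cre_positive replicates 1 to 3, and fell by 0.97 on the log2 scale (SE 0.17, adjusted p = 0.0148 in edgeR). Stat2 and Irf7, of the type I interferon response, fell by 0.78 (SE 0.17) and 1.61 (SE 0.32) on the log2 scale. Ifngr1, which encodes the ligand-binding chain of the interferon-gamma receptor, was at 51.3 ± 10.5 against 41.1 ± 2.73 CPM (SD, n = 3; adjusted p = 0.197 in edgeR). Transcripts of the interferon genes Ifng and Ifnb1 were barely counted, at no more than 7 and 4 counts in a library. The call of Irf1 ended when any Cre_positive library was left out (adjusted p up to 0.0726 in edgeR). Stat2 lost it without Cre_negative replicate 1 or 3 or Cre_positive replicate 2 or 3 (up to 0.130), and Irf7 without any 1 of the Cre_negative libraries, without Cre_positive replicate 3 and with no filter on low counts (up to 0.143).

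Among 12 genes of the MHC enhanceosome and of NF-kB, 2 fell, where 3.82% of all genes tested did. None rose and 10 did not pass in edgeR's quasi-likelihood test, with a median of -0.16. The 2 were the NF-kB subunits Relb and Nfkb2, which pair in the non-canonical pathway. Relb went from 13.7 ± 3.73 to 7.18 ± 0.521 CPM (SD, n = 3; log2 fold change -0.94, adjusted p = 0.0240 in edgeR) and Nfkb2 from 44.0 ± 7.77 to 27.5 ± 1.54 CPM (log2 fold change -0.68, adjusted p = 0.0146 in edgeR). Neither call held when any Cre_positive library was left out (adjusted p up to 0.109 and 0.0694 in edgeR). Rfx5, part of the factor that recruits NLRC5 to class I promoters, was at 28.9 ± 5.46 against 20.5 ± 0.964 CPM and did not pass (adjusted p = 0.0577 in edgeR). Over all 8 lists, 14 of 104 tested genes were called, all lower, where 3.82% of all genes tested were called lower. That count was 9 without Cre_negative replicate 1, and 8, 6 and 5 without Cre_positive replicates 1, 2 and 3.

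Psmb9, Tap1, Psmb8 and Tap2 lie side by side in the MHC on chromosome 17, between H2-DMb1 and H2-Ob in the RefSeq gene order. H2-DMb1, a class II peptide editor, had 32.1, 25.4 and 29.6 CPM across Cre_negative replicates 1 to 3, against 16.3, 16.2 and 17.5 CPM across Cre_positive replicates 1 to 3. It fell by 0.80 on the log2 scale (SE 0.11, adjusted p = 0.00419 in edgeR). H2-Ob, on the other side, had 1.33, 0.286 and 1.83 CPM against 2.10, 1.23 and 2.09 CPM and did not pass (adjusted p = 0.559 in edgeR). Tapbp lies elsewhere on chromosome 17, Psmb10 and Nlrc5 on chromosome 8, Psme1 and Psme2 on chromosome 14 and B2m on chromosome 2. No source used here gives the strand setting of the counting, so reads in overlapping stretches may be split. In GENCODE M21 the spans of Psmb9 and Tap1, on opposite strands, overlap by 212 bases. Of the non-member genes that overlap one of the 10, the most abundant was Zbtb22, which shares 3422 bases with Tapbp on the same strand. Its log2 fold change was 0.0063 (SE 0.093). The antisense genes over Psmb8 and Psmb10, and the antisense gene Patl2 over B2m, had at most 29 counts in a library. The largest count in a library was 86 for Gm15821 over Tap2, 79 for Gm19412 over Tapbp and 213 for 9330175E14Rik over Nlrc5, all on the opposite strand.

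By likeness of pattern, measured as the root mean square difference of log2 CPM deviations over the 6 libraries from the median of the 10 genes, H2-DMb1 came first among 12777 candidate genes, at 0.036. Tmem221 (0.068), the macrophage growth factor gene Csf1 (0.076), Zfp825 (0.086) and Ydjc (0.087) followed. Their log2 fold changes, with that of H2-DMb1, ran from -0.82 to -0.66. The median pattern contains the genotype difference on which the 10 genes were grouped. Genes with a similar fold change therefore rank high, and the ranking is a description and not a test. B2m, a member, stood at 0.026 and Tap1 at 0.37 by the same measure. Csf1 had 33.9, 25.2 and 27.5 CPM across Cre_negative replicates 1 to 3, against 18.0, 16.2 and 17.4 CPM across Cre_positive replicates 1 to 3.

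Markers of several cell types differed between the genotypes beside these genes. Of 12 macrophage markers, C1qc and Cd14 fell and 10 did not pass in edgeR's quasi-likelihood test, where 3.82% of all genes tested fell. Both calls ended when any Cre_positive library was left out (adjusted p up to 0.0893 and 0.140 in edgeR). The call of Cd14 also ended without Cre_negative replicate 2 and with no filter on low counts. The summed CPM of the 12 was 369, 195 and 302 across Cre_negative replicates 1 to 3, against 195, 195 and 184 across Cre_positive replicates 1 to 3, and none of the 12 was at 0. Csf1r, the CSF1 receptor, was the only one of the 12 with a log2 fold change above 0, at 62.8 CPM in Cre_negative replicate 2 and 85.0 to 101 CPM in Cre_positive libraries. Without it, a choice made after its values were seen, the other 11 summed to 288, 132 and 204 CPM against 108, 94.3 and 99.2 CPM. The groups then did not overlap. In Cre_negative replicate 2, 5 of the 12 markers were above every Cre_positive library, 3 below every one and 4 within their range. None of the dendritic, T and NK, B cell or neutrophil markers passed. Their sums were 20.2 to 27.4, 4.58 to 11.4, 0.913 to 2.57 and 2.25 to 5.19 CPM in Cre_negative libraries. In Cre_positive libraries they were 27.5 to 32.5, 9.12 to 15.2, 2.25 to 3.70 and 1.43 to 1.97 CPM.

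Most endothelial and several tubular markers rose. Of 8 endothelial markers 7 rose in edgeR's quasi-likelihood test, where 3.73% of all genes tested rose. The 8 summed to 429 to 475 CPM in Cre_negative and 667 to 703 CPM in Cre_positive libraries. Of 8 proximal tubule markers 5 rose and none fell (6114 to 7072 against 9514 to 10261 CPM), and of 6 distal ones 4 rose and none fell (5969 to 7322 against 9485 to 10106 CPM). Slc22a6, a proximal anion transporter, and Aqp2, the water channel of the collecting duct, had log2 fold changes of -0.71 and -0.66 and did not pass (adjusted p = 0.0553 and 0.301 in edgeR). Of 8 podocyte markers 2 rose and none fell (500.0 to 579.7 against 696 to 806 CPM). Of 6 mesangial and juxtaglomerular markers 2 rose and 1 fell (257 to 326 against 344 to 369 CPM). The part of these cell type differences in the levels of the 10 genes was not tested.

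**Figure D4:**
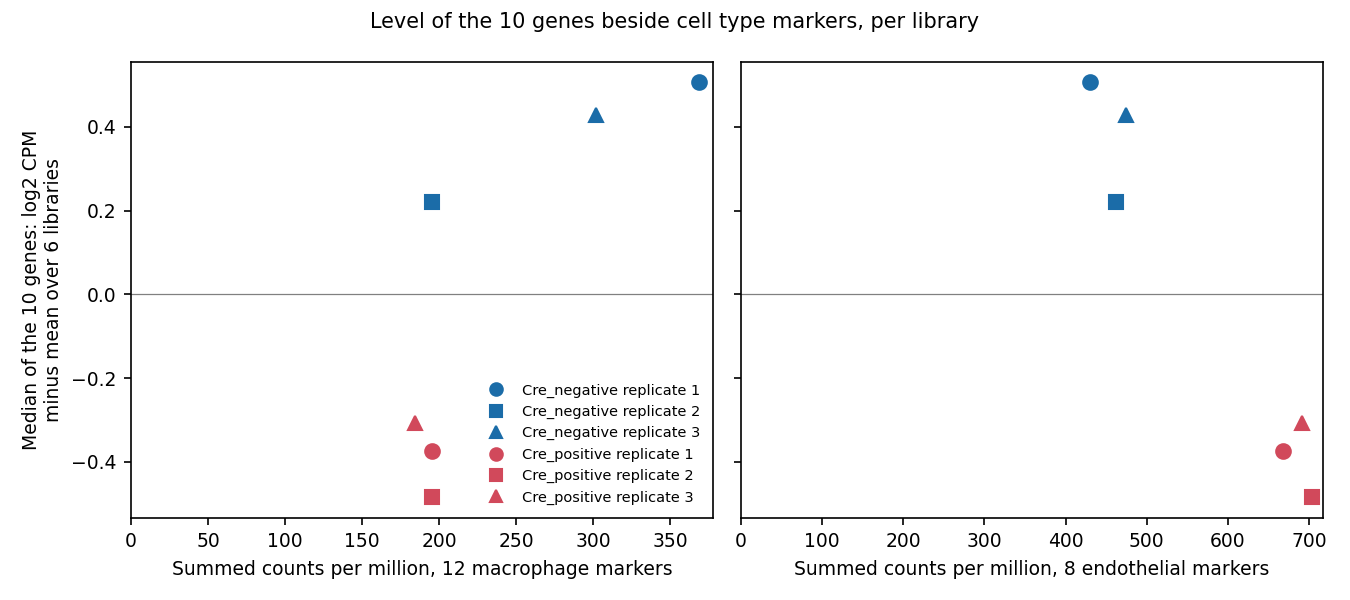
Median level of the 10 genes (log2 CPM minus the mean over 6 libraries) against the summed CPM of 12 macrophage markers (left) and 8 endothelial markers (right), a point per library. Cre_negative replicate 2 lies at 195 CPM of macrophage markers and 0.22 on the vertical axis, and the Cre_positive libraries at 184 to 195 CPM and -0.48 to -0.31. Without Csf1r, left out after its values were seen, these sums are 132 CPM and 94.3 to 108 CPM.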

How the data were processed

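RNA of isolated glomeruli was sequenced in 6 libraries, 3 per genotype. Per the labels' protocols, polyadenylated RNA was made into dUTP-marked libraries and read in pairs on an Illumina NovaSeq. The authors deposited 1 table of whole-number counts per Ensembl gene. Tools listed in the submitters' processing notes are fastp, HISAT2, StringTie and edgeR, and the build is GRCm39. No source used here gives versions, annotation release, strand setting or handling of multiple matches.

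Counts were analysed as deposited in R 4.3.3 with edgeR 4.0.16 (filterByExpr, TMM, robust quasi-likelihood test, Benjamini-Hochberg adjustment over all 19927 genes tested, threshold 0.05). CPM values use TMM factors (0.979 to 1.03). The SE is the log2 fold change over the square root of F. Symbols came from a table that covered 51880 of 57132 rows. Deviations use log2 CPM with a prior count of 2. Columns left unmapped numbered 0. Library pairs differed by a chi-square of 20.6 or more per degree of freedom, above sampling noise. Same-numbered replicates were compared for pairing.

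The 10 genes, the lists and the tests were chosen with earlier results of these data known. Named genes were the 10, up to 4 per list by smallest p among those called (otherwise the smallest p), Psmb5, Psmb6, Psmb7, Irf1, H2-K1, H2-D1, chromosomal neighbours and the 5 most alike genes (average log2 CPM 1 or more). Others named beside them (Ciita, Ifngr1, Rfx5, H2-Q1, Psme2b, overlapping genes) were picked after their values were seen. Alternatives used DESeq2 1.42.0, limma 3.58.1 and other factors, filters and libraries. Protein sequences were not used here. One gene that the rule names is not reported here.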

Additional observations from a re-analysis of the deposited data

How the results depend on the processing

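All 10 genes kept a log2 fold change below 0 under the 14 other settings run on them (DESeq2 or upper-quartile factors, DESeq2, limma voom, robust=FALSE, other filters, the replicate block, each library left out). Of 140 such values 131 stayed called and 9 lost the call, all of them Psme1 or Psme2. Because the 10 were grouped on this contrast, these counts and the next are no evidence about them. The number of the 10 called ran from 8 to 9 with single libraries left out, and was 9 with limma voom, 9 with robust=FALSE and 7 at an adjusted p of 0.01. Over all genes, 1505 were called, 2697 with DESeq2, 414 at 0.01 and 462 to 2039 with single libraries left out, where fewer samples enter the fit. The other pathway genes called numbered 14, 25 with DESeq2 and 5 to 18 with single libraries left out. The cause of the DESeq2 counts was not tested. The mean log2 ratio difference ran from -0.96 to -0.55 for Psmb8 to Psmb5, -1.07 to -0.75 for Psmb9 to Psmb6 and -0.61 to -0.43 for Psmb10 to Psmb7 when single libraries were left out. The median log2 fold change of all genes lay between -0.0078 and 0.0025 in every setting. The replicate numbers are shared by the genotypes, but deviations of same-numbered libraries correlated by only 0.017 to 0.055, so they were not taken as pairs. With a replicate block, 1541 genes, all 10 of the genes described and 17 other pathway genes were called. Each of the 6 libraries correlated best with its own number, a weak hint from the data and not from the design. For Cre_negative replicate 3 the margin was minute, at 0.0173 with Cre_positive replicate 3 and 0.0170 with Cre_positive replicate 2. Counts of Nlrc5 (476 or more) and Psmb9 (405 or more) were the lowest of the 10, so depth was not limiting for them, while Ifng and Ifnb1 were at or near the floor of 3 counts.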
